A study of Mus musculus with 8 samples.

Results

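The transcripts described here are those of Tfam and 7 further nuclear genes whose proteins copy, transcribe and maintain mitochondrial DNA: Polg, Polg2, Ssbp1, Polrmt, Tfb1m, Tfb2m and Top1mt. They were taken by gene name from a table of 24972 genes. All 8 names were present, and all 8 passed the filter on low values (a mean of at least 10 normalized counts over the libraries), which left 13267 genes for testing. RNA sequencing had been done on primary fibroblasts grown from mouse embryos of embryonic day 14 and passaged 2 times, with no treatment in any group. The 4 genotypes were wild type (WT), Tfam+/- (1 of the 2 Tfam alleles lost), Zbp1-/- (both Zbp1 alleles lost) and Tfam+/-Zbp1-/- (both changes together), each with 2 libraries. The series compared these genotypes pairwise. Which part of Tfam or Zbp1 is deleted, the mouse strain, and whether replicate libraries stem from different embryos or cultures are unknown from the sources used, so p-values measure the spread between these libraries, which may be technical. The values are gene-level sums of total RNA from whole cultures: the 2 Tfam alleles were not counted apart, and fewer cells of a type cannot be told apart from less RNA per cell. Names of genes on mitochondrial DNA itself were searched only by the prefix mt-, which 0 names in the table carried. Other names for them were not searched, and the transcripts of that DNA are not analysed here.

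Mitochondrial DNA is a small circular genome present in many copies per cell, and every protein that copies or transcribes it is encoded in the nucleus. TFAM, a protein of the high-mobility-group family, coats and bends this DNA into compact nucleoids, and at the promoters it recruits the mitochondrial RNA polymerase POLRMT together with the initiation factor TFB2M. Replication uses DNA polymerase gamma (POLG with its accessory subunit POLG2), the single-strand binding protein SSBP1, primers made by POLRMT, and topoisomerases such as TOP1MT that release supercoils. The amount of TFAM protein is known to track the copy number of mitochondrial DNA, and mouse cells with 1 Tfam allele have been used as a model of disturbed nucleoid packaging.

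The transcription factors NRF1 and GABP (the latter a member of the ETS family) and SP1 are textbook regulators of these genes, so the promoter windows of the members were searched for their core letters. RefSeq promoters of assembly GRCm38.p6 (250 bases before to 50 after the start) were found for 7 of the 8 genes, all but Top1mt. CCGGAAGT, the ETS core, lay in 2 of the 7 on either strand and in 3.89% of 32851 promoter windows of the same length. CGCATGCG, the NRF1 core, which reads the same on both strands, lay in 1 of the 7 and in 1.87% of all windows. GGGCGG, the SP1 core, lay in 5 of the 7 and in 35.66% of all windows, and its matches overlap none of the printed ones. The 3 stretches holding an ETS or NRF1 match are shown, 30 bases each, 5′ to 3′ on the strand of the gene (the minus strand of GRCm38.p6 in all 3), with the match in capitals.
Tfam, chr10:71238073-71238102: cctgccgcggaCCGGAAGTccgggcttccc
Polg, chr7:79466293-79466322: gaggacctcacCCGGAAGTccctctgcacc
Tfb2m, chr1:179546246-179546275: gctaggtcgttCGCATGCGccattcgtaat
The match began 47 bases before the start of Tfam and 38 bases before that of Polg, and just after the start of Tfb2m. These are letter matches in reference sequence, with no measure of binding, and the starts used lie within the outer bounds of the 3 genes. Polg2 and Polrmt held none of the 3 cores in the searched window.

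Library totals were 16752835 to 18303036 normalized counts. All 11 fibroblast markers were above 0 in every library, with summed levels of 510097.2 to 750069. The 8 macrophage and leukocyte markers summed to 4236.2 and 4174.8 in WT, to 5306.4 and 4839 in Tfam+/-, to 2654.7 and 2379.6 in Zbp1-/-, and to 2176.2 and 2161.6 in Tfam+/-Zbp1-/-. The sum was thus lower wherever Zbp1 was lost. Singly, 6 of the 8 had all libraries that lost Zbp1 below all the others, and Cd68 and Aif1 overlapped. Endothelial, epithelial, muscle and neural marker sums reached at most 459.5, 415.8, 909.8 and 1532.5, and the myogenic factors Myod1 and Myog were near 0. Zbp1 was at 64.6 and 69.83 in Tfam+/- and at 0.86 to 7.34 in the other 6 libraries. In Tfam+/-Zbp1-/- it was at 0.86 and 2.69, far below Tfam+/-, as that label says. WT itself was near the floor, so the Zbp1-/- label could not be checked against WT. Tfam+/- replicate 1 and Zbp1-/- replicate 2 stood apart from the other 6 libraries. They lay below all of the other 6 in 27.5% of genes tested and above all of them in 21.5%. Among the members, Ssbp1 and Tfb2m were of the first kind and Polrmt and Top1mt of the second. The labels name no batch for these libraries, and they belong to different genotypes. Each comparison is therefore given in the limma fit of all 8 libraries, in the same fit with 1 added term shared by these 2 libraries (called the shared term), and from the other 6 libraries, where Tfam+/- and Zbp1-/- have 1 library each whose spread is taken to be that of the genotypes still holding a pair. Changes are differences of log2(normalized count + 1), and calls rest on a p adjusted by Benjamini-Hochberg over all 13267 genes, with a threshold of 0.05.

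Tfam (chromosome 10, 71225468 to 71238328, minus strand, 7 exons) was at 628.7 and 610.1 normalized counts in WT and at 277.8 and 364.7 in Tfam+/-. It was at 675.0 and 470.9 in Zbp1-/- and at 423.8 and 374.6 in Tfam+/-Zbp1-/-. All 4 libraries with 1 allele lost were below the 4 with both alleles, and the nearest pair across that divide was Tfam+/-Zbp1-/- replicate 1 and Zbp1-/- replicate 2. In percent of the WT mean, the Tfam+/- libraries stood at 44.8 and 58.9 and the Tfam+/-Zbp1-/- libraries at 68.4 and 60.5. Tfam was the only one of the 8 members whose libraries separated in this way, which 1.07% of the genes tested did in the same direction.

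**Figure D1:**
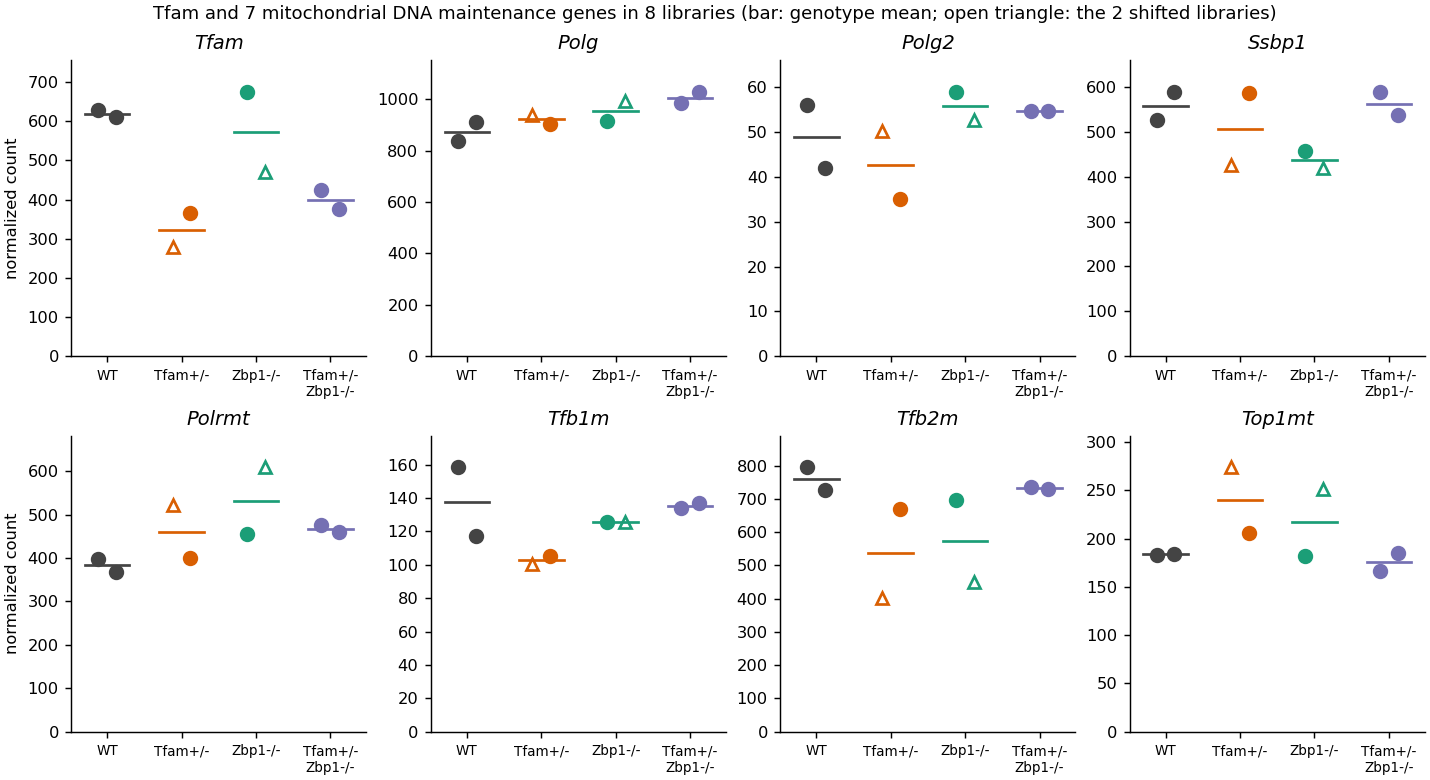
Normalized counts (vertical axes, from 0) of the 8 genes in each library, by genotype. Points are libraries, bars are genotype means of 2 libraries, and open triangles mark Tfam+/- replicate 1 and Zbp1-/- replicate 2. The 4 libraries with 1 Tfam allele lost sit at 277.8 to 423.8 for Tfam, below the other 4, while the triangles lie at one end of the range for Ssbp1, Polrmt, Tfb2m and Top1mt.

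Averaged over both Zbp1 genotypes, the log2 change of Tfam with 1 allele lost was -0.73 ± 0.15 (SE), a level of 60.3% of that with both alleles (95% interval 47.3% to 76.9%). In the fit of all 8 libraries this was not called (limma, p 0.0018, adjusted p 0.14), although only 0.626% of genes were called in that comparison and Tfam ranked at 170 by p-value. An exact permutation test of the 4 libraries against the other 4 gave a two-sided p of 0.0286, the smallest that 70 arrangements allow. Kept within each Zbp1 genotype, the exact permutation test gave p = 0.0556, again the smallest possible, over 36 arrangements. Cell type markers moved in the same average. All 4 tested neural and Schwann markers were below 0 (median -0.70, against 0.00 for all genes). Ngfr, a neurotrophin receptor of Schwann cells, was called by limma with all 8 libraries at -1.17 ± 0.13 (adjusted p 0.02). In Tfam+/- against WT, 2 of the 4 were above 0 (median 0.09) and Ngfr was at -0.12 ± 0.18 (adjusted p 0.73). In Tfam+/-Zbp1-/- against Zbp1-/-, all 4 were below 0 (median -1.24) and Ngfr was at -2.23 ± 0.18 (adjusted p 0.025). The interaction of Ngfr was called, at -2.11 ± 0.26 (adjusted p 0.03). Summed, the neural and Schwann markers stood at 944.3 and 919.2 in WT, at 1170.7 and 955.8 in Tfam+/-, at 1167 and 1532.5 in Zbp1-/-, and at 680.6 and 661.8 in Tfam+/-Zbp1-/-. Of the 11 fibroblast markers 9 were below 0 (median -0.20), with 0 called from all 8 libraries. With the shared term 8 were called lower and 2 higher, against 11.9% and 13.7% of all genes. Of the 8 macrophage and leukocyte markers, 7 were above 0 in Tfam+/- against WT (median 0.41). In Tfam+/-Zbp1-/- against Zbp1-/- 6 were below 0 (median -0.16), and the averaged median was 0.04. With all 8 libraries 0 of them were called in these 3 comparisons. With the shared term 4 were called higher in the first and 4 lower in the second, against 981 and 1459 of 13267 genes. The part of all these markers in the Tfam change was not tested.

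The average joins a larger and a smaller difference. In Tfam+/- against WT the mean levels were 321 ± 61.4 and 619 ± 13.1 (SD, n = 2), and the log2 change was -0.96 ± 0.21 (adjusted p 0.16). In Tfam+/-Zbp1-/- against Zbp1-/- the means were 399 ± 34.8 and 573 ± 144, and the log2 change was -0.50 ± 0.21 (adjusted p 0.40). The spread of the Zbp1-/- pair was the widest of the 4, and single libraries moved the second value, to -0.24 without Zbp1-/- replicate 1 and to -0.76 without Zbp1-/- replicate 2. The interaction, the second change minus the first, was 0.46 ± 0.29 with a 95% interval of -0.24 to 1.16 and was not called (adjusted p 0.37).

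Fitting the shared term brought both changes to -0.73 ± 0.08, and both were called (adjusted p 3.3e-06 and 2.3e-06). Their average was then -0.73 ± 0.05 (95% interval -0.84 to -0.62, adjusted p 4.6e-09). The average has the same size with and without the term by construction, since each side of it holds 1 of the 2 libraries. From the other 6 libraries the change was -0.76 in each comparison and -0.76 ± 0.06 on average (adjusted p 8e-08). The interaction became 0.00 ± 0.13 with the term (95% interval -0.26 to 0.27), an estimate that rests on the other 6 libraries alone. A level at 50% would be a log2 change of -1. The 95% interval of the averaged change included it with all 8 libraries and did not include it with the shared term. The term marks 2 libraries that were picked because they stood apart in these same data. Its intervals and adjusted p-values may therefore be too small, and they do not decide whether the level differs from 50%.

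**Figure D2:**
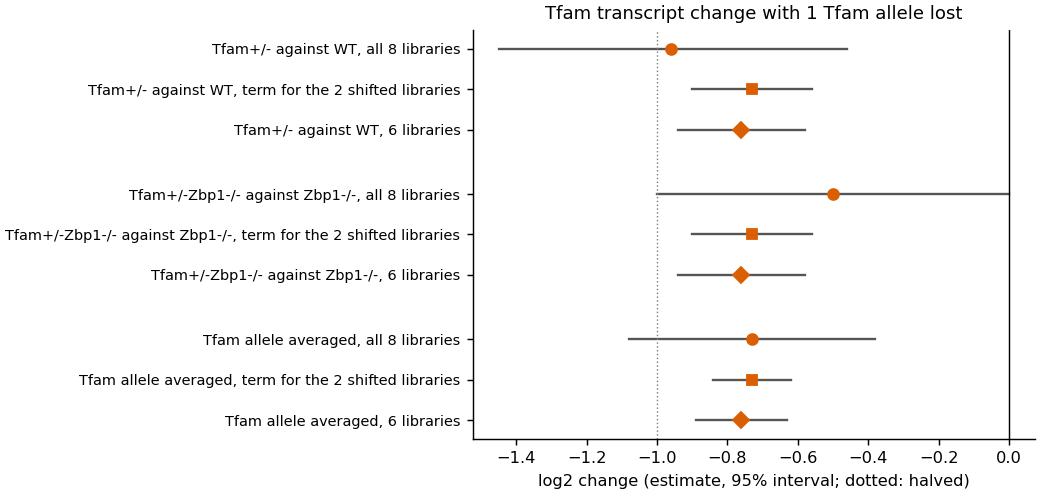
Log2 change of Tfam (horizontal axis, 95% interval as line) with 1 allele lost, for each comparison under 3 fits: all 8 libraries (circles), with the term shared by the 2 libraries that stand apart (squares), and the other 6 libraries (diamonds). The 2 comparisons lie apart at -0.96 and -0.50 with all 8 libraries and coincide at -0.73 with the term and at -0.76 in the 6 libraries.

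The 7 other genes were not called with 1 Tfam allele lost when all 8 libraries were fitted. In Tfam+/- against WT limma called 0 of the 8 members, against 0.731% of all genes, and 1 (Tfam) had an unadjusted p under 0.05. In Tfam+/-Zbp1-/- against Zbp1-/- it called 0, against 0.415%, with Tfam again the 1 member under an unadjusted 0.05. The same held for the average. The counts over all genes behind these shares depend on single libraries: 97, 55 and 83 genes were called in these 3 comparisons with all 8 libraries, and the lowest counts with 1 library left out were 12, 0 and 0. With the shared term the members called were Tfam and Tfb2m in the first comparison, and Tfam alone in the second and in the average, where 15.6%, 23.8% and 25.6% of all genes were called. From the 6 libraries they were Tfam alone in the first, and Tfam and Ssbp1 in the second and in the average, against 15.4%, 23.4% and 21.6%. Apart from Tfam, 0 or 1 of 7 called is not more than these shares of all genes.

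The replication enzymes come first. Polg (chromosome 7, 79446231 to 79467911, 23 exons), the catalytic subunit of DNA polymerase gamma, was at 835.8 and 911.8 in WT, at 940.2 and 903.8 in Tfam+/-, at 917.4 and 993.4 in Zbp1-/-, and at 984.1 and 1029.1 in Tfam+/-Zbp1-/-. The lowest value was in WT and the highest in Tfam+/-Zbp1-/-, and the WT pair lay below all 4 libraries that lost Zbp1. Polg was the steadiest member, with a highest level 1.23 times the lowest. Its averaged log2 change with 1 Tfam allele lost was 0.08 ± 0.07 (95% interval -0.10 to 0.26).

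Polg2 (chromosome 11, 106768204 to 106779537, 8 exons), the accessory subunit that holds the polymerase on its template, was the least abundant member. It was at 56.0 and 41.9 in WT, at 50.3 and 35.1 in Tfam+/-, at 59.0 and 52.8 in Zbp1-/-, and at 54.8 in both Tfam+/-Zbp1-/- libraries. The WT and Tfam+/- pairs each spread widely and overlapped. The averaged change was -0.11 ± 0.17, with an interval of -0.52 to 0.29.

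Ssbp1 (chromosome 6, 40471414 to 40481823, plus strand, 7 exons), which coats the single strand exposed during replication, was at 526.2 and 589.5 in WT, at 425.9 and 586.1 in Tfam+/-, at 457.0 and 419.4 in Zbp1-/-, and at 588.0 and 538.5 in Tfam+/-Zbp1-/-. The low values were Tfam+/- replicate 1 and both Zbp1-/- libraries, while the second Tfam+/- library lay within the WT range. With 1 Tfam allele lost its change was -0.16 ± 0.17 with Zbp1 intact and 0.36 ± 0.17 without Zbp1 (adjusted p 0.64 and 0.46). From the 6 libraries the second of these was called at 0.30 ± 0.08 (adjusted p 0.016) and so was the average, 0.19 ± 0.06 (adjusted p 0.034). With the shared term neither was, at 0.22 ± 0.09 (adjusted p 0.096) and 0.10 ± 0.06 (adjusted p 0.21).

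Among the transcription factors and the polymerase, Polrmt (chromosome 10, 79736125 to 79746604, 21 exons), the RNA polymerase that also makes replication primers, was at 397.5 and 368.8 in WT and at 520.9 and 400.3 in Tfam+/-. It was at 455.4 and 608.6 in Zbp1-/- and at 475.8 and 459.1 in Tfam+/-Zbp1-/-. The 2 highest values were those of the 2 libraries that stand apart, and the WT pair was below all of the others. The averaged change with 1 Tfam allele lost was 0.04 ± 0.13 (95% interval -0.27 to 0.35).

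Tfb2m (chromosome 1, 179528052 to 179546305, 8 exons), which melts the promoter for POLRMT, was at 794.7 and 727.7 in WT, at 403.3 and 669.2 in Tfam+/-, at 697.5 and 448.7 in Zbp1-/-, and at 737.0 and 730.4 in Tfam+/-Zbp1-/-. After Tfam it had the widest range of the 8 genes, 1.97 times from lowest to highest, and that range came from Tfam+/- replicate 1 and Zbp1-/- replicate 2. The other 6 libraries spanned only 669.2 to 794.7. In Tfam+/- against WT its change was -0.55 ± 0.28 (adjusted p 0.56) with all 8 libraries, -0.21 ± 0.07 with the shared term (called, adjusted p 0.044), and -0.18 ± 0.07 from the 6 libraries (adjusted p 0.084). The averaged change was -0.08 ± 0.20 (95% interval -0.55 to 0.40), and with the term the interval was -0.17 to 0.01.

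Tfb1m (chromosome 17, 3519250 to 3557796, 7 exons), a relative of Tfb2m that methylates the small ribosomal RNA of mitochondria, was at 158.3 and 117.3 in WT, at 100.5 and 105.0 in Tfam+/-, at 125.6 and 125.3 in Zbp1-/-, and at 133.9 and 137.0 in Tfam+/-Zbp1-/-. Both Tfam+/- libraries were the lowest of the 8. Its change in Tfam+/- against WT was -0.40 ± 0.17 (adjusted p 0.56), and it was not called with the term, at -0.39 ± 0.16 (adjusted p 0.12). In Tfam+/-Zbp1-/- against Zbp1-/- the change was 0.11 ± 0.17, so the average was -0.15 ± 0.12 (95% interval -0.43 to 0.14). The difference between the 2 changes was not called (0.51 ± 0.24, adjusted p 0.32).

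Top1mt (chromosome 15, 75657033 to 75678800, 14 exons), the topoisomerase, was at 183.4 and 183.8 in WT, at 273.8 and 205.9 in Tfam+/-, at 182.5 and 251.8 in Zbp1-/-, and at 166.7 and 185.5 in Tfam+/-Zbp1-/-. Tfam+/- replicate 1 and Zbp1-/- replicate 2 were the highest, and the other 6 libraries lay between 166.7 and 205.9. The averaged change with 1 Tfam allele lost was 0.04 ± 0.15 (95% interval -0.30 to 0.39).

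In every one of the 7, the interval of the averaged change included 0 with all 8 libraries and also with the shared term. With the term the intervals ran from -0.00 to 0.16 for Polg, -0.44 to 0.22 for Polg2, -0.02 to 0.22 for Ssbp1, -0.06 to 0.14 for Polrmt, -0.36 to 0.07 for Tfb1m and -0.11 to 0.19 for Top1mt. None of them reached the -0.62 that bounded the Tfam change. The gene pairs Polg and Fanci, Polg2 and Milr1, and Tfb1m and Tiam2 overlap on opposite strands by 4034, 542 and 12089 bases, as do Tfb1m and Cldn20 by 660, and no source used here says whether counting kept the strands apart. Tfb2m and Top1mt likewise overlap Gm15480 (519 bases) and Gm15945 (2123 bases) on the opposite strand, and neither neighbour is among the genes measured. Reads of neighbours may therefore be part of the values of Polg, Polg2, Tfb1m, Tfb2m and Top1mt.

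**Figure D3:**
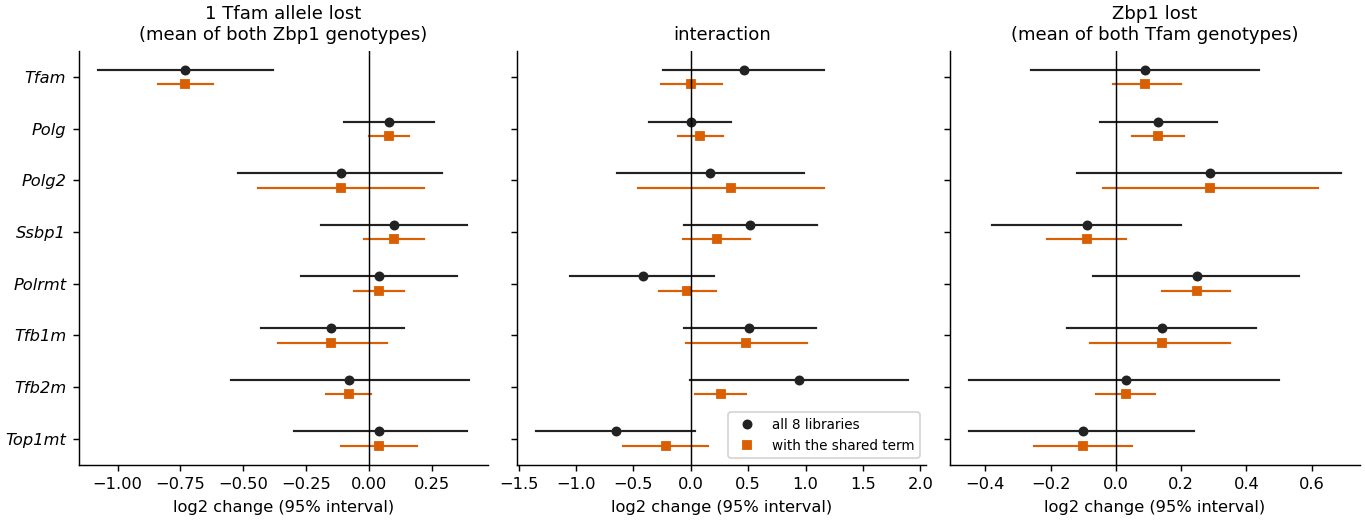
Log2 changes (horizontal axes, 95% intervals as lines) of the 8 genes with 1 Tfam allele lost, for the interaction, and with Zbp1 lost, from all 8 libraries (circles) and with the shared term (squares). In the first panel Tfam lies at -0.73, and the other 7 lie between -0.15 and 0.10 with intervals that include 0.

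Whether the effect of the Tfam allele differed with Zbp1 genotype was tested by the interaction. limma called 0 of the 8 members under each of the 3 fits (all 8 libraries, the shared term, the 6 libraries), where 0.663%, 16.9% and 19.1% of all genes were called, and 0 had an unadjusted p under 0.05 with all 8. The largest estimates were those of Tfb2m (0.94 ± 0.40, adjusted p 0.31) and Top1mt (-0.65 ± 0.29, adjusted p 0.32). Both moved towards 0 with the term, to 0.26 ± 0.11 (p 0.025, adjusted p 0.11) and -0.22 ± 0.18 (adjusted p 0.46). From the 6 libraries Tfb2m was at 0.26 ± 0.10 (p 0.017, adjusted p 0.078). The Tfb1m estimate moved little, from 0.51 to 0.48 ± 0.25 (adjusted p 0.22). A p that misses the threshold does not show that the effects are equal.

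Loss of Zbp1 was examined in the same genes. With all 8 libraries limma called 0 of 8 in Zbp1-/- against WT (1.06% of all genes called), 0 in Tfam+/-Zbp1-/- against Tfam+/- (5.64%) and 0 in their average (6.96%). Unadjusted p-values under 0.05 numbered 1, 0 and 0. With the shared term 1, 2 and 2 were called, against 35.6%, 45.6% and 57.5% of all genes, and from the 6 libraries 2, 1 and 4 were called, against 34.3%, 43.6% and 51.2%. None of these shares of the members exceeds that of all genes, the last (4 of 8) is about the same, and the differences were not tested. The authors' scaling gave all genes a median change of 0.12 in the average, which rescaling by a trimmed mean moved to -0.01, so changes are to be read against it.

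Polrmt was called with the shared term in all 3 of these comparisons, with an averaged change of 0.25 ± 0.05 (adjusted p 3e-04). It was above the median of all genes, and 0.24 ± 0.06 in the 6 libraries (adjusted p 0.0039). With all 8 libraries it was 0.25 ± 0.13 (adjusted p 0.32), and after rescaling 0.12. In Tfam+/-Zbp1-/- against Tfam+/- its direction turned with the scaling, from 0.03 to -0.10. Polg was called with the term in Tfam+/-Zbp1-/- against Tfam+/- (0.17 ± 0.06, adjusted p 0.026, but 0.13 with all 8 libraries and -0.01 after rescaling) and in the average, at 0.13 ± 0.04 (adjusted p 0.0072), which is close to the median of all genes, and was 0.00 after rescaling. Polg2 was called only from the 6 libraries, with an averaged change of 0.45, and so was Ssbp1, at -0.17. Each average joins unequal parts. In Zbp1-/- against WT, Ssbp1 was at -0.28 and Polg2 at 0.28 in these 6 libraries. In Tfam+/-Zbp1-/- against Tfam+/- they were at -0.06 and 0.63. Tfam was not called in any of these: its averaged change with Zbp1 lost was 0.09 ± 0.15 (95% interval -0.26 to 0.44), and -0.03 after rescaling. Cell type markers moved in the same average with all 8 libraries. Of all 13267 genes 74.4% were above 0 there, with 681 called higher and 242 lower. Of the 8 macrophage and leukocyte markers 6 were called lower (median -0.86), and of the 11 fibroblast markers 9 were above 0 and 4 called higher (median 0.27). Of 3 tested endothelial markers 2 were below 0, with 1 called lower and the lowest at -1.32. The other 1 was above 0, at 0.85, and was not called. The 2 tested epithelial markers were below 0, and 1 was called lower. Of 4 tested neural and Schwann markers 3 were above 0 (median 0.36), and the 1 tested muscle marker, Des, was at -0.60, with 0 called in either group. The part of all these markers in the values of the 8 genes was not tested.

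The estimated change of the double genotype against WT uses neither of the 2 libraries that stand apart. Its SE and p in the fit of all 8 libraries do use them, since the spread is pooled over all genotypes. With only these 2 genotypes fitted, limma called 5935 of all genes, against 183 with all 8 libraries. The mean of Tfam in Tfam+/-Zbp1-/- was 64.5% of that in WT, a log2 change of -0.63 ± 0.21 (95% interval -1.13 to -0.14, adjusted p 0.26). limma called 0 of 8 members with all 8 libraries (1.38% of all genes called), and 1, Tfam, had an unadjusted p under 0.05. With the shared term it called Tfam, Polg and Polrmt, against 42.5% of all genes, and the same 3 were called from the 6 libraries, against 44.8%. Tfam was then at -0.63 ± 0.07 (95% interval -0.79 to -0.48, adjusted p 1.9e-06), Polrmt at 0.29 ± 0.07 (adjusted p 0.0026) and Polg at 0.20 ± 0.05 (adjusted p 0.0047). After rescaling the last pair were 0.16 and 0.08. This comparison changes both genes at once and shares its libraries with those above.

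Between genes, levels are given per 1000 bases of the longest RefSeq-matched transcript, as the mean ± SD over 8 libraries. Tfb2m was the highest, at 266 ± 58.8. Polrmt (123 ± 20.6), Polg (120 ± 7.81), Ssbp1 (117 ± 16.5), Tfam (115 ± 34.6) and Top1mt (107 ± 20.05) followed and did not differ from their neighbours beyond their spread. Tfb1m stood at 89.4 ± 13.2, and its libraries (71.7 to 113) overlapped those of Top1mt (87.6 to 144). Polg2 stood at 33.6 ± 5.36, below the lowest library of any other member (23.3 to 39.2 across libraries, against 66.7 for the lowest Tfam library). The catalytic subunit of the polymerase thus had a transcript level per length well above that of its accessory subunit in every library. These means pool libraries with and without the loss of 1 Tfam allele, and the order differs in WT. In WT alone, with 2 libraries, Tfam came second, at 149 per 1000 bases after Tfb2m at 311, and was followed by Ssbp1 at 127, Polg at 111.5, Polrmt at 102, Tfb1m at 98.3, Top1mt at 96.5 and Polg2 at 32.5. Transcript lengths were taken from annotation, so this order depends on which isoforms the cells use, which was not tested.

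The genes whose profile over the 8 libraries was most like that of Tfam were sought among 13266 others, by Pearson's r of log2 values, as a description only. They were Acyp2 (r = 0.966), Fmo2 (0.957), Cxcl12 (0.955), Grb10 (0.953) and Pex7 (0.947). Cxcl12, a chemokine of stromal cells, was at 9722.1 and 10055.6 in WT, at 5056.1 and 5615.7 in Tfam+/-, at 8964.2 and 7820.5 in Zbp1-/-, and at 6954.5 and 6925.3 in Tfam+/-Zbp1-/-. Its 4 libraries with 1 Tfam allele lost were below the other 4, as were those of Acyp2, Fmo2 and Grb10, while those of Pex7 overlapped. Of all genes tested, 1.07% separated in this way. Since these genes were picked for likeness to Tfam in the same libraries, their separation is no further evidence. For Polrmt, Tfb2m and Top1mt the most alike genes were Coro1b (r = 0.994), Srp54a (0.994) and Rassf1 (0.986), and each of these had its 2 most extreme values in the 2 libraries that stand apart. For Polg, Polg2, Ssbp1 and Tfb1m they were Rps27l (0.973), Hdac8 (0.962), Slc25a13 (0.976) and 1500004A13Rik (0.933). These points share library composition and depth.

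The rest of the pathway was described by 5 lists of 76 genes, of which 75 were tested. Tymp, which degrades thymidine, had too low a level. With all 8 libraries limma called 0 of them with 1 Tfam allele lost in either Zbp1 genotype or in the average, and 0 for the interaction, and in the average 4 had an unadjusted p under 0.05. With the shared term 19 were called in the average, 18 higher and 1 lower, and from the 6 libraries 22. Of all genes 25.6% were called with the term, 13.7% higher and 11.9% lower, and 50.6% were above 0 in the average. Whether the lists differ from all genes in this balance was not tested.

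Of 16 replication and repair genes, 10 were above 0 in the average, with a median log2 change of 0.04 against 0.00 for all genes. With the shared term 3 were called higher, against 13.7% of all genes. Dna2, a nuclease that trims flaps of replicating DNA, was at 107.29 and 131.6 in WT, at 133.19 and 124.55 in Tfam+/-, at 92.6 and 91.49 in Zbp1-/-, and at 140.1 and 146.46 in Tfam+/-Zbp1-/-. Its change of 0.37 ± 0.11 (adjusted p 0.33, and 0.0079 with the term) averaged 0.12 where Zbp1 was intact and 0.63 where it was lost, a difference that was not called (adjusted p 0.31). Ung, which removes uracil from DNA, had an averaged value of 0.21 ± 0.12 and was not called in either fit of the average. Lig3 and Apex1, a ligase and an endonuclease of base repair, were the other 2 called with the term, at 0.13 and 0.18.

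Of 22 genes of transcription and RNA processing, 17 were above 0, against 50.6% of all genes, with a median of 0.06. With the term 5 were called higher, against 13.7% of all genes. Pnpt1, a mitochondrial RNA-degrading enzyme, was at 908.27 and 865.01 in WT, at 596.18 and 1076.33 in Tfam+/-, at 741.25 and 452.69 in Zbp1-/-, and at 894.1 and 911.38 in Tfam+/-Zbp1-/-. The wide pairs are again those holding the 2 libraries that stand apart, and the change was 0.25 ± 0.22 without the term. Tbrg4, an RNA-binding protein of the FASTK family, had a value of 0.24 ± 0.12 (adjusted p 0.80, and 3.9e-04 with the term). Elac2, Slirp and Mrpl12 were the remaining 3 called. In this list 13 of 22 genes were lowest in the 2 libraries that stand apart and 5 were highest there, against 27.5% and 21.5% of all genes.

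Of 13 tested genes of nucleotide supply, 6 were above 0, with a median of -0.02. With the term 2 were called higher and 1 lower, against 13.7% and 11.9% of all genes. Rrm2, the regulated subunit of ribonucleotide reductase and a gene of the DNA synthesis phase, was at 2345.41 and 2294.3 in WT, at 2081.81 and 2580.77 in Tfam+/-, at 2058.62 and 1648.84 in Zbp1-/-, and at 2740.75 and 2691.77 in Tfam+/-Zbp1-/-. The WT and Tfam+/- pairs overlapped, while the Tfam+/-Zbp1-/- pair was above the Zbp1-/- pair. Its averaged change was 0.28 ± 0.11 (adjusted p 0.53). Slc25a36, a carrier of pyrimidine nucleotides, was the 1 called lower with the term. It stood at -0.21 ± 0.31 without the term, and this changed sign when Tfam+/- replicate 1 (0.06) or Zbp1-/- replicate 1 (0.08) was left out.

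Of 10 nucleoid and protease genes, 8 were above 0, with a median of 0.10, and 6 were called higher with the term, against 13.7% of all genes. Atad3a, a membrane protein linked to nucleoids, was at 574.09 and 600.67 in WT, at 842.84 and 705.43 in Tfam+/-, at 575.14 and 667.76 in Zbp1-/-, and at 665.69 and 668.48 in Tfam+/-Zbp1-/-. Both Tfam+/- libraries were above both of WT, and its averaged change was 0.25 ± 0.09 (adjusted p 0.53, and 1.1e-04 with the term). Hspd1, the matrix chaperonin, had a value of 0.20 ± 0.11 (adjusted p 0.81, and 6.2e-07 with the term). In this list 6 of 10 genes were highest in the 2 libraries that stand apart. Lonp1, the protease that degrades TFAM, was among them and was not called with the term.

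Of 14 upstream regulators, 8 were above 0, with a median of 0.02, and 2 were called higher with the term, against 13.7% of all genes. Myc, a transcription factor of growth, was at 679.73 and 643.38 in WT, at 995.71 and 954.2 in Tfam+/-, at 639.44 and 568.06 in Zbp1-/-, and at 707.06 and 669.76 in Tfam+/-Zbp1-/-. Both Tfam+/- libraries stood above the other 6. The averaged change was 0.38 ± 0.08 (adjusted p 0.16, and 3.4e-06 with the term), with 0.56 ± 0.11 where Zbp1 was intact (adjusted p 0.12) and 0.19 ± 0.11 where it was lost (adjusted p 0.52). The difference between the last pair was not called with all 8 libraries (-0.37 ± 0.16, adjusted p 0.31) and was with the term (-0.42 ± 0.11, adjusted p 0.01). Ppargc1b, a coactivator, had an averaged value of 0.33 ± 0.15 (adjusted p 0.72). Gabpa, the DNA-binding subunit of GABP, was at 1010.06 in Tfam+/- replicate 1 and 1073.68 in Zbp1-/- replicate 2 and at 1684.55 or more in the other 6 libraries. Nrf1 stayed between 404.17 and 520.27 in all 8, and Ppargc1a was at 28.86 or less.

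**Figure D4:**
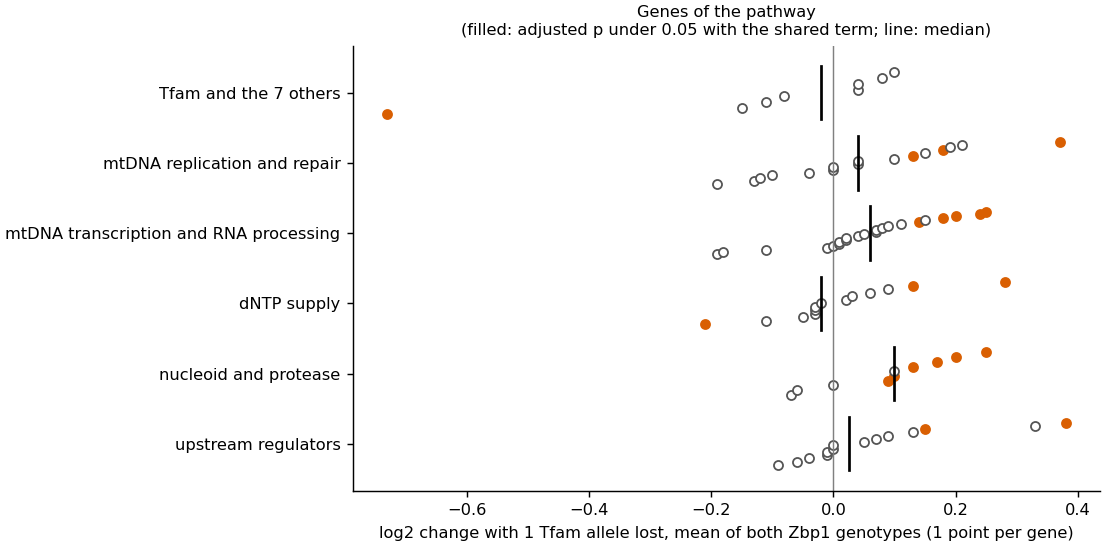
Log2 change (horizontal axis) with 1 Tfam allele lost, averaged over both Zbp1 genotypes, 1 point per gene, for the 8 members and the 5 lists. Filled points were called with the shared term, 0 were called without it, and lines are medians. Tfam at -0.73 lies apart from all other points, which run from -0.21 to 0.38.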

How the data were processed

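Per the series' design text, STAR within a BaseSpace application aligned the reads to mm10 and RefSeq genes. STAR 2.6.1a and Salmon are named in the submitters' processing notes. The authors deposited 1 normalized count per gene and library, a signal of 0 or more that need not be whole. How they counted, scaled or treated strand is unknown from the sources used here. Whole reads were not recovered (22.1% to 34.8% of low values lay within 0.01 of a whole multiple of the commonest value), so count models were not run. Sequencing depth is unknown, since the library totals are of counts already normalized.

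Libraries were grouped by their labels. limma 3.58.1 in R 4.3.3 (lmFit, eBayes with trend) fitted the 4 genotypes on log2(value + 1), two-sided, for genes with a mean of at least 10, with 4 residual and 2.77 prior degrees of freedom. Fold changes on this scale understate low genes. The fits with the shared term and of 6 libraries had 3 and 2 residual and 15.1 and 14.6 prior ones. The permutation tests used scipy 1.17.1. The code was tested on simulated data. The alternatives changed the pseudocount (5 or 0.1), the filter (none, or a mean of 50 or more), the scaling (by a trimmed mean, with 30% of ratios and 5% of means trimmed at each end), the prior (no trend), or the libraries fitted (compared genotypes alone, or 1 library left out), or added the replicate number as a block. RefSeq symbols of GRCm38.p6 matched 24407 names and gave the 1-based coordinates. Exons and lengths are from GENCODE.

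Members, lists, tests and the 2 libraries that stand apart were chosen with earlier results of these data known. Named were all members, Zbp1, every list gene called with all 8 libraries (0 genes), the 2 genes per list with the largest averaged change, and the most alike genes. Other list genes (Lig3, Apex1, Elac2, Slirp, Mrpl12, Lonp1, Gabpa, Nrf1, Ppargc1a, Tymp) were named after their values were seen.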

Additional observations from a re-analysis of the deposited data

How the results depend on the processing

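The term shared by Tfam+/- replicate 1 and Zbp1-/- replicate 2, and the fit of the other 6 libraries, changed calls most. Members called went from 0 to 2 and 1 in Tfam+/- against WT, 1 and 2 in Tfam+/-Zbp1-/- against Zbp1-/-, 1 and 2 in the average of both, 1 and 2 in Zbp1-/- against WT, 2 and 1 in Tfam+/-Zbp1-/- against Tfam+/-, 2 and 4 in the Zbp1 average, and 3 and 3 in Tfam+/-Zbp1-/- against WT (3 also with only these genotypes). List genes called went from 0 to 11 and 11, 17 and 18, and 19 and 22 in the first 3, to 6 and 6 for the interaction and to 24 and 25 in the Zbp1 average (1 after rescaling). With the term, 15.6%, 23.8% and 25.6% of all genes were called in the first 3. For the interaction the share was 16.9%, and in the Zbp1 average 57.5%. The shares from the 6 libraries are given in the Results. Calls thus rose in all genes as well, and whether list genes differ from all genes was not tested. The Tfam change became called at -0.73 and -0.76 in the first 3, and its interaction 0.00. The permutation p of 0.0286 became 0.1 in the 6 libraries and 0.0571 without any 1 library, the smallest these designs allow, by having fewer samples.

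With the term or in the 6 libraries, signs turned for Tfam in Zbp1-/- against WT (0.09 and 0.12), Ssbp1 in Tfam+/- against WT (0.07 in the 6), Polg2 (0.06 with the term) and Polrmt (0.03 and 0.04) in Tfam+/-Zbp1-/- against Zbp1-/-, Polg in the interaction (0.08 and 0.08), Ssbp1 in Tfam+/-Zbp1-/- against Tfam+/- (-0.06 in the 6) and Top1mt in Zbp1-/- against WT (-0.01 in the 6). After rescaling they turned for Tfam (-0.03) and Tfb2m (-0.10) in the Zbp1 average and for Polg (-0.01) and Polrmt (-0.10) in Tfam+/-Zbp1-/- against Tfam+/-. The cause was not tested.

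Leaving out each library gave 0 members called in each of the 8 comparisons, and 0 list genes in the 5 for which these were counted (the first 3, the interaction and the Zbp1 average). Over all genes the calls moved from 97 to between 12 (without either WT library) and 98 in Tfam+/- against WT, from 55 to between 0 (without Zbp1-/- replicate 2 or Tfam+/-Zbp1-/- replicate 1) and 69 in Tfam+/-Zbp1-/- against Zbp1-/-, from 83 to between 0 (without Tfam+/-Zbp1-/- replicate 1) and 43 in their average, and from 88 to 0 without any 1 of 5 libraries (both of WT, Zbp1-/- replicate 2, both of Tfam+/-Zbp1-/-) in the interaction. The replicate block gave 28, 1, 15 and 0. Leaving out each library kept the sign of Tfam with 1 allele lost: -1.15 to -0.76, -0.76 to -0.24 and -0.86 to -0.60 in the first 3. Signs turned, over the ranges given, for Tfam in Zbp1-/- against WT (-0.39 to 0.12) and in the Zbp1 average (-0.04 to 0.22), Polg2 (-0.45 to 0.05) and Ssbp1 (-0.39 to 0.07) in Tfam+/- against WT, and Polg2 (-0.11 to 0.05) and Polrmt (-0.38 to 0.04) in Tfam+/-Zbp1-/- against Zbp1-/-. In the Tfam average they did for Polg2 (-0.24 to 0.01), Ssbp1 (-0.01 to 0.22), Polrmt (-0.06 to 0.15), Tfb2m (-0.26 to 0.10), Top1mt (-0.07 to 0.16) and Slc25a36 (-0.50 to 0.08), in the interaction for Polg (-0.07 to 0.06) and Polg2 (-0.08 to 0.43), in Tfam+/-Zbp1-/- against Tfam+/- for Polrmt (-0.16 to 0.22), and in the Zbp1 average for Ssbp1 (-0.20 to 0.03), Tfb2m (-0.15 to 0.21) and Top1mt (-0.22 to 0.01).

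Replicate numbers did not pair the libraries by the labels or by deviations (r of -0.70 to 0.06 across genes between same-numbered libraries). The replicate block left 0 members called and the averaged Tfam change at -0.73 (adjusted p 0.36). Under the block, both pseudocounts, both filters and the prior without trend, each result computed on members and list genes kept its direction and its side of the threshold.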
